A study of Mus musculus with 8 samples.

Results

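The genes described here are 8 markers of monocytes, the blood cells that enter tissues and replenish macrophages, as measured in cells sorted from mouse mammary gland. They are Ccr2, Plac8, Ifitm6, S100a4 and Klf4, taken here as 5 genes of classical monocytes, and Treml4, Ace and Nr4a1, taken as 3 genes of non-classical monocytes. Each symbol stands for the probe set that carried that symbol alone and had the highest mean signal over the 8 arrays. All 8 genes were found, out of 18193 genes with a probe set of their own, and all 8 were among the 13041 genes kept for testing.

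The cells came from female FVB mice that were 6 weeks old when treatment began. Transgenic mice carried MMTV-iFGFR1, a fibroblast growth factor receptor 1 that a dimerizer drug switches on, driven by the MMTV promoter, which is active mainly in mammary epithelium, and control mice were non-transgenic littermates. Mice of both genotypes were given the dimerizer over 48 hours or over 4 weeks, so drug exposure was common to all 4 groups: transgenic at 48 hours, control at 48 hours, transgenic at 4 weeks and control at 4 weeks. Each group held 2 pools of 3 mice, each pool hybridised to its own array after collagenase digestion, sorting with a Cd11b antibody and RNA amplification in 2 cycles. For pool 2 of the transgenic mice at 4 weeks, 1 free-text label speaks of non-transgenic animals, whereas its title, source and genotype labels all say transgenic, and it was used as transgenic. No pool was measured again, so each SD is the spread between 2 pools. Each SE and interval comes from the limma fit, in which all 4 groups share 1 estimate of the spread for a gene.

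Monocytes of the mouse fall into a classical subset, rich in the chemokine receptor Ccr2 that draws these cells out of bone marrow and into inflamed tissue, and a non-classical subset that patrols the vessel wall and depends on the nuclear receptor Nr4a1. In tissue, classical monocytes lose monocyte genes as they turn into macrophages, and in the mammary gland such recruited cells live beside macrophages that reside there. Cd11b, used for the sort, is carried by monocytes, macrophages, neutrophils and some dendritic and NK cells, so the marker signals are those of a mixture. In these bulk samples, fewer cells of a type and less RNA per cell cannot be told apart.

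Signals of the 8 markers are MAS5 values on a linear scale, and differences between groups are log2 differences after an offset of 30.8 was added to each signal. All 8 genes lay above the median of their array on all 8 arrays, with array medians between 96.4 and 126.9. Klf4 sat between the 99.6th and the 99.7th percentile of its array, whereas Ace reached down to the 62.3rd percentile and Treml4 to the 65.8th. The summed signal of 12 tissue macrophage genes was between 268457 and 297861 in transgenic pools at 48 hours, 262576 and 278890 in control pools at 48 hours, 269477 and 276252 in transgenic pools at 4 weeks, and 263183 and 345533 in control pools at 4 weeks. The array of control pool 2 at 4 weeks stood apart in RNA quality, with a ratio of 37.0 between the 3' and 5' probe sets for beta-actin against 6.84 to 13.9 on the other 7 arrays. Where the values of a marker turn on this pool, they are given with and without it.

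None of the 8 markers passed the test between transgenic and control mice, at 48 hours (0 of 8, against 0% of all genes tested) or at 4 weeks (0 of 8, against 0%), at an adjusted p under 0.05 in limma. At 48 hours, no marker and 4.07% of all genes had an unadjusted p under 0.05. At 4 weeks the markers with an unadjusted p under 0.05 were Ace and Nr4a1, 2 of 8, against 5.08% of all genes. The groups of 2 did not overlap for 3 of 8 markers at 48 hours, where 35% of all genes did not, and for 4 of 8 at 4 weeks, where 31.9% did not. The median of the 8 log2 differences was 0.04 at 48 hours, as it was over all genes (0.04), and -0.25 at 4 weeks, against -0.02 over all genes. The sign of the 4-week median turned on single pools: it was 0.080 without control pool 2 and lay between -0.33 and 0.080 over the fits that left out 1 pool. The median size of the difference, whatever its sign, was 0.22 for the markers and 0.27 for all genes at 48 hours, and 0.58 for the markers and 0.26 for all genes at 4 weeks. Without transgenic pool 2 at 4 weeks, the pool with the conflicting label, the 4-week differences kept their signs and none passed, at 0.56 for Nr4a1, -1.43 for Ace, -1.17 for Treml4, 0.85 for Ccr2, 0.55 for S100a4, -0.63 for Plac8, -0.15 for Ifitm6 and -0.12 for Klf4.

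**Figure D1:**
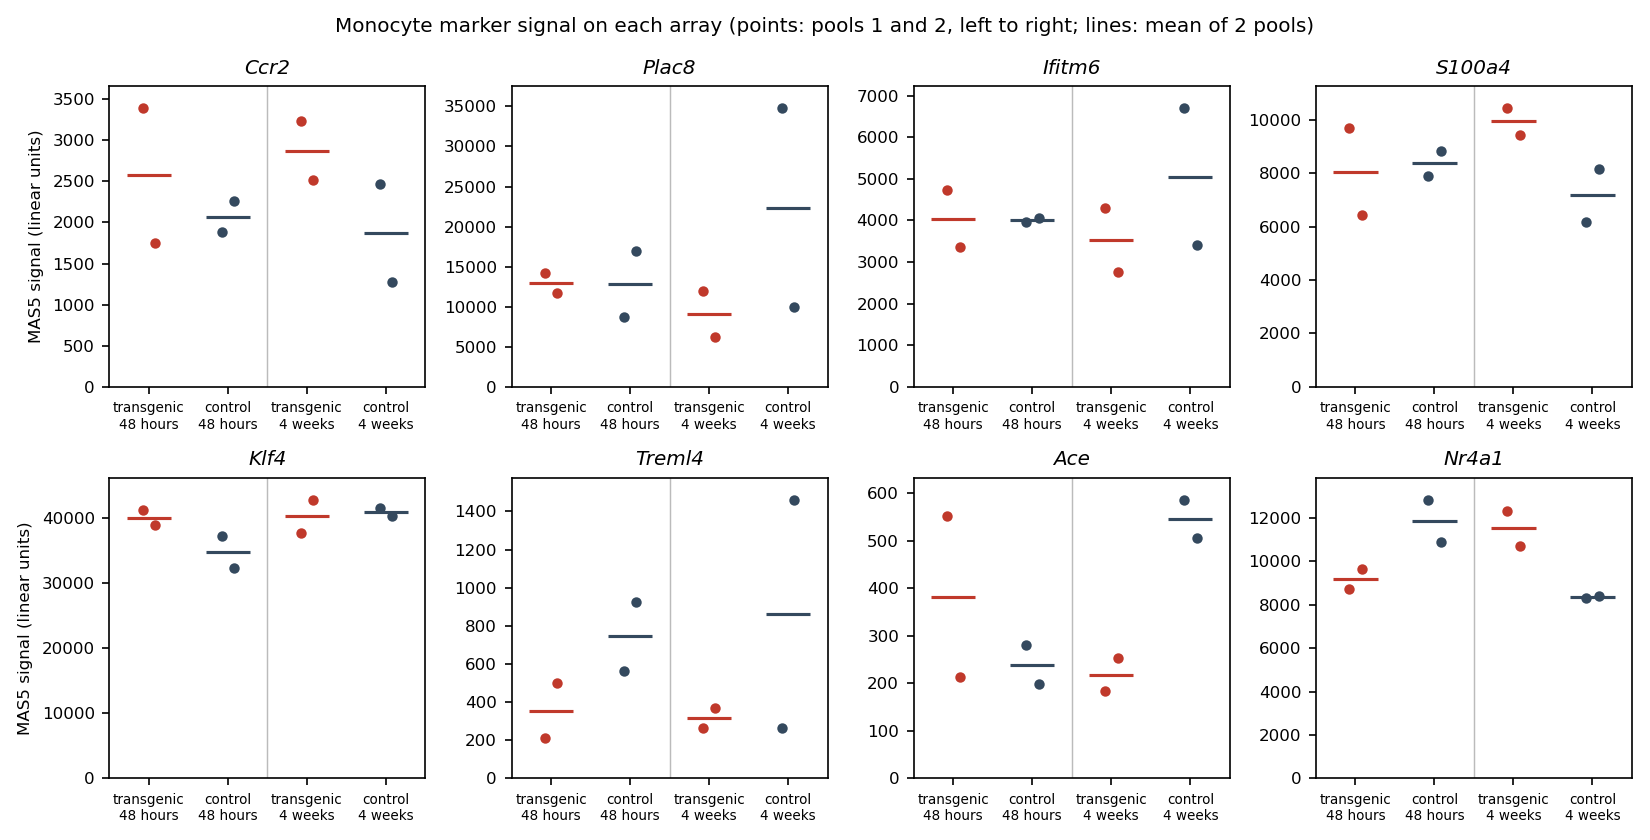
Signal of each of the 8 monocyte markers on each array, in linear MAS5 units, with 1 panel per gene and its own axis from 0; points are pools 1 and 2 of a group, left to right, and lines are the mean of both. Nr4a1 is lower in both transgenic pools than in both control pools at 48 hours and higher at 4 weeks, and Plac8 has 1 control pool at 34767 at 4 weeks.

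Nr4a1 encodes an orphan nuclear receptor that is induced within minutes of many stimuli and that non-classical monocytes of the mouse need to survive. At 48 hours its signal was 8722 and 9656 in the transgenic pools, against 12840.3 and 10901 in the control pools. At 4 weeks it was 12336 and 10717 in the transgenic pools, against 8298 and 8412 in the control pools. Both transgenic pools were thus below both control pools at 48 hours and above both at 4 weeks, and such a crossing was seen for 2.29% of all genes, while 5.5% crossed in either direction.

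The means of Nr4a1 were 9189 ± 660 in transgenic and 11871 ± 1372 in control mice at 48 hours, and 11526 ± 1145 in transgenic and 8355 ± 81.0 in control mice at 4 weeks (SD, n = 2 pools each). The log2 difference, transgenic minus control, was -0.37 at 48 hours (SE 0.19, 95% interval -0.78 to 0.05) and 0.46 at 4 weeks (SE 0.19, 95% interval 0.04 to 0.88). Neither passed after adjustment in limma (adjusted p = 0.976 and 0.965). The difference between the genotype effects was 0.82 (SE 0.27, 95% interval 0.23 to 1.42), with an adjusted p of 0.988 in limma. Ace and Nr4a1 were the 2 of 8 markers with an unadjusted p under 0.05 for this interaction, against 4.74% of all genes, and 0 of 8 markers (0% of all genes) passed after adjustment. 

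Nr4a1 has 2 close relatives, Nr4a2 and Nr4a3, which bind the same DNA element and are also immediate early genes. The windows of 250 bases upstream of the RefSeq transcription starts of all 3 genes (RefSeq, GRCm38.p6) are shown because the 3 genes had the same signs in these arrays and because the cyclic AMP response element, the binding element of CREB, is a known feature of Nr4a promoters. Capitals mark the core TGACG of that element or its reverse complement CGTCA, searched on both strands. They lie at chr15:101266596-101266845 on the plus strand for Nr4a1, chr2:57124004-57124253 on the minus strand for Nr4a2 and chr4:48045055-48045304 on the plus strand for Nr4a3.
Nr4a1: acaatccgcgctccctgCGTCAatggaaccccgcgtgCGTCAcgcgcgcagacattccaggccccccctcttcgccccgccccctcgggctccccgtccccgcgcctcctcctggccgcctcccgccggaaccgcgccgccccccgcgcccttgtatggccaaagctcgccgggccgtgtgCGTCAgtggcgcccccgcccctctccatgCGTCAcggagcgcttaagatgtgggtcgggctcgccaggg
Nr4a2: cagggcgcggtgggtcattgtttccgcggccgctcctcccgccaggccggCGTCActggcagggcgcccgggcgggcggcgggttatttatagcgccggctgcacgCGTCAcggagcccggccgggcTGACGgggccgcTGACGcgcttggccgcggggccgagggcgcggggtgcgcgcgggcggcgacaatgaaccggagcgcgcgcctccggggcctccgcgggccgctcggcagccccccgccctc
Nr4a3: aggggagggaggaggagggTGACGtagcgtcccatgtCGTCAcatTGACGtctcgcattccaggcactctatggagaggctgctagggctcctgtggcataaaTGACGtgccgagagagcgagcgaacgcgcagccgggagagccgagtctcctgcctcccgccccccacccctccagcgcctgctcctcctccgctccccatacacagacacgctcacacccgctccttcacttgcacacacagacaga
Each of the 3 windows holds 4 such cores, with no overlap between them. Among 32851 windows of the same length in the RefSeq table, 17.8% hold at least 1 and 0.137% hold at least 4. A match is a description of these letters and says nothing on binding in these cells.

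Among the other markers, the window of Klf4 holds 1 TGACG core and those of the remaining 6 hold none. The PU.1 core GAGGAA, searched on both strands and present in 23.3% of all windows, occurs 2 times each in the window of Treml4 and in the first listed window of Plac8 and of Ace. No AP-1 site TGAGTCA (4.46% of windows), EGR core GTGGGCG (7.02%) or SRF CArG box (1.47%) was found in the windows of the 8 markers.

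Nr4a2 measured 5419 and 7841 in transgenic pools against 13403 and 9559 in control pools at 48 hours. Nr4a2 at 4 weeks was 5832 and 8356 in transgenic pools, against 4799 and 4941 in control pools. The log2 difference of Nr4a2 was -0.79 at 48 hours and 0.52 at 4 weeks (SE 0.27 each), with adjusted p = 0.976 and 0.981 in limma. Leaving out 1 pool gave 0.26 to 0.78 at 4 weeks. Its groups did not overlap at either time, as for Nr4a1.

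Nr4a3 measured 14587 and 19585 in transgenic pools against 24044 and 24362 in control pools at 48 hours, a log2 difference of -0.52 (SE 0.38). Nr4a3 at 4 weeks was 16176 and 34644 in transgenic pools and 11016 and 22584 in control pools, a log2 difference of 0.58 (SE 0.38) with overlapping groups that was between 0.036 and 1.13 when 1 pool was left out. Of the 10 NR4A and KLF relatives tested, none passed in either direction at either time. In the mean of the transgenic pools, 5 of the 10 were higher at 48 hours, where 54% of all genes were, and 8 at 4 weeks, where 48% were, and the median differences were -0.01 and 0.13.

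Ace encodes angiotensin-converting enzyme, which turns angiotensin I into angiotensin II and is carried on non-classical monocytes. At 48 hours its signal was 551 and 212 in transgenic pools, against 279 and 199 in control pools. Ace at 4 weeks measured 183 and 252 in transgenic pools, against 586 and 505 in control pools. Control pools at 4 weeks were both above both transgenic pools, while the groups overlapped at 48 hours, where transgenic pool 1 alone was high.

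Mean Ace signal was 382 ± 240 in transgenic and 239 ± 57.1 in control mice at 48 hours, and 218 ± 49.1 in transgenic and 545 ± 57.4 in control mice at 4 weeks (SD, n = 2 pools each). Its log2 difference was 0.50 at 48 hours (SE 0.43, adjusted p = 0.976 in limma) and -1.22 at 4 weeks (SE 0.43, 95% interval -2.18 to -0.27, adjusted p = 0.965 in limma). The difference between the genotype effects of Ace was -1.72 (SE 0.61, adjusted p = 0.988 in limma), the opposite sign of that of Nr4a1. A second probe set for Ace read 112 and 166 in transgenic pools against 187 and 228 in control pools at 4 weeks, with a log2 difference of -0.50 and again no overlap. At 48 hours the second probe set differed by 0.27, also without overlap. The 4-week difference of Ace was -1.33 without control pool 2, the array with the high actin ratio, and that of Nr4a1 was 0.47.

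Between the times, control mice had a log2 difference at 4 weeks minus 48 hours of 1.11 for Ace (SE 0.43, adjusted p = 0.758 in limma) and of -0.50 for Nr4a1 (adjusted p = 0.753 in limma). Both had an unadjusted p under 0.05, 2 of 8 markers against 6.16% of all genes, and 0 of 8 passed after adjustment, against 0.00767% of all genes. In control mice the 2 times did not overlap for Ace, Klf4 and Nr4a1, 3 of 8 markers, against 31.8% of all genes. In transgenic mice the 2 times did not overlap for Nr4a1 alone, 1 of 8 against 28.5%, with a log2 difference of 0.32. There 0 of 8 passed (0% of all genes) and 0 of 8 had an unadjusted p under 0.05 (2.19% of all genes). These time comparisons use the same arrays as the genotype comparisons and are not separate evidence. All mice began treatment at the same age, so those treated over 4 weeks were also older. Age and length of treatment cannot be told apart here.

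Treml4 encodes an immunoglobulin-type receptor of the TREM family found on non-classical monocytes and some tissue macrophages of the mouse. At 48 hours its signal was 211 and 498 in transgenic pools, against 563 and 927 in control pools, without overlap. Treml4 at 4 weeks measured 264 and 368 in transgenic pools, against 265 and 1461 in control pools, which overlapped because control pool 1 was as low as the transgenic pools. Its log2 difference was -1.07 at 48 hours (95% interval -2.54 to 0.39) and -0.95 at 4 weeks, with an SE of 0.66 at each time. Leaving out 1 pool gave -1.64 to -0.51 at 48 hours.

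Over both times Treml4 differed by -1.01 (SE 0.44, adjusted p = 0.957 in limma) and was the 1 of 8 markers with an unadjusted p under 0.05 in that comparison, against 4.58% of all genes, while 0 of 8 passed (0% of all genes). Without control pool 2 at 4 weeks, the array with the high actin ratio, the 4-week difference of Treml4 was 0.21 and the difference over both times -0.56. With the actin ratio as a covariate these were 0.31 and -0.17. Leaving out control pool 1 instead gave -2.12 at 4 weeks. The 4-week value of Treml4 therefore depends on which control pool is read.

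**Figure D2:**
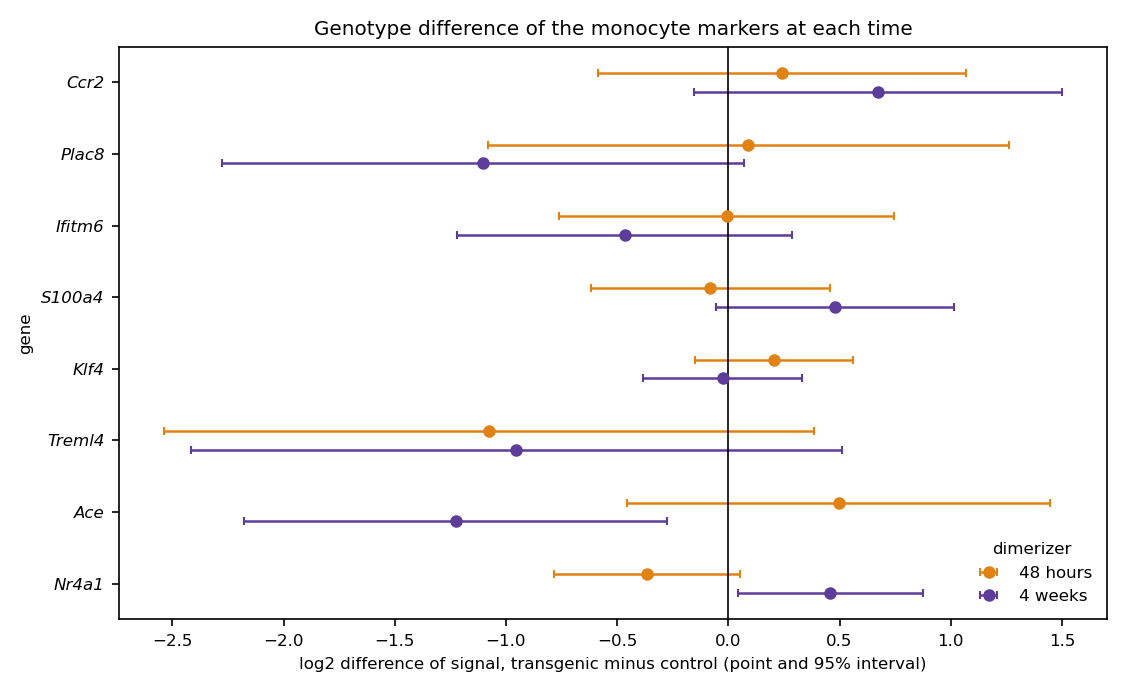
Log2 difference of signal, transgenic minus control, for each monocyte marker at 48 hours and 4 weeks of dimerizer, with 95% intervals from limma (4 residual degrees of freedom among 8 arrays, plus the prior). The intervals of Ace (-2.18 to -0.27) and Nr4a1 (0.04 to 0.88) at 4 weeks leave out 0 before adjustment for the number of genes, and the other intervals include 0.

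Ccr2 is the receptor for Ccl2 and the defining marker of classical monocytes. Its signal was 3388 and 1753 in transgenic pools against 1878 and 2260 in control pools at 48 hours. Ccr2 at 4 weeks measured 3229 and 2513 in transgenic pools, against 2463 and 1277 in control pools. The transgenic pools were both above the control pools at 4 weeks by a narrow gap, and the groups overlapped at 48 hours.

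The log2 difference of Ccr2 was 0.24 at 48 hours (SE 0.37, 95% interval -0.59 to 1.07) and 0.67 at 4 weeks (SE 0.37, 95% interval -0.16 to 1.5, adjusted p = 0.981 in limma). Without control pool 2 at 4 weeks it was 0.21 at 4 weeks, and with the actin ratio as a covariate 0.13, while leaving out control pool 1 gave 1.14. The other 3 probe sets for Ccr2 had 4-week differences of 0.26, 0.72 and 0.31, each with overlapping groups, and 48-hour differences of 0.04, 0.05 and -0.29. All 4 probe sets of Ccr2 were thus higher in the mean of transgenic pools at 4 weeks, but they read 1 gene on the same arrays and are not replicates.

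S100a4 encodes a calcium-binding protein of motile cells that is abundant in monocytes and also in fibroblasts. Its signal was 9709 and 6424 in transgenic pools against 7894 and 8846 in control pools at 48 hours. S100a4 at 4 weeks measured 10438 and 9451 in transgenic pools, against 6190 and 8176 in control pools, with both transgenic pools above both control pools. The log2 difference of S100a4 was -0.08 at 48 hours (SE 0.24) and 0.48 at 4 weeks (SE 0.24, 95% interval -0.06 to 1.02, adjusted p = 0.981 in limma). The 4-week value was 0.28 without control pool 1 and 0.68 without control pool 2. The summed signal of 7 fibroblast genes was between 65160 and 84672 in transgenic pools and 56504 and 75931 in control pools at 4 weeks, and its part in the S100a4 signal was not tested.

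Plac8 encodes a small cysteine-rich protein that is high in classical monocytes and neutrophils. Its signal was 14262 and 11673 in transgenic pools against 8679 and 16938 in control pools at 48 hours. Plac8 at 4 weeks measured 12014 and 6246 in transgenic pools, against 34767 and 9998 in control pools. Control pool 1 at 4 weeks was far above all other arrays, and the groups overlapped at both times. Plac8 had a log2 difference of 0.09 at 48 hours (SE 0.53) and -1.10 at 4 weeks (SE 0.53, 95% interval -2.28 to 0.07, adjusted p = 0.973 in limma). It was -0.21 without control pool 1 and -2.00 without control pool 2 at 4 weeks.

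Ifitm6 encodes a member of the interferon-induced transmembrane protein family that is found in classical monocytes. Its signal was 4735 and 3356 in transgenic pools against 3952 and 4066 in control pools at 48 hours. Ifitm6 at 4 weeks measured 4290.1 and 2769 in transgenic pools, against 6697 and 3399 in control pools. As with Plac8, control pool 1 at 4 weeks was the highest of the 8 arrays and transgenic pool 2 at 4 weeks the lowest. Ifitm6 had a log2 difference of -0.01 at 48 hours and -0.47 at 4 weeks (SE 0.34 each), and the 4-week value was 0.02 without control pool 1 and -0.95 without control pool 2.

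Klf4 encodes a zinc finger transcription factor that promotes monocyte differentiation. Its signal was 41217 and 39040 in transgenic pools against 37353 and 32359 in control pools at 48 hours. At 4 weeks it was 37749 and 42865 in transgenic pools, against 41578 and 40319 in control pools. Klf4 had the narrowest spread of the 8 markers, 1.32-fold between its lowest and highest array, where Treml4 spanned 6.91-fold. Klf4 had a log2 difference of 0.21 at 48 hours (SE 0.16, 95% interval -0.15 to 0.56), without overlap, and -0.03 at 4 weeks (SE 0.16), with overlap.

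A second probe set for Klf4 gave log2 differences of 0.64 at 48 hours and 0.37 at 4 weeks. In it the groups overlapped at 48 hours and did not at 4 weeks, so the 2 probe sets disagree on the sign at 4 weeks.

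**Figure D3:**
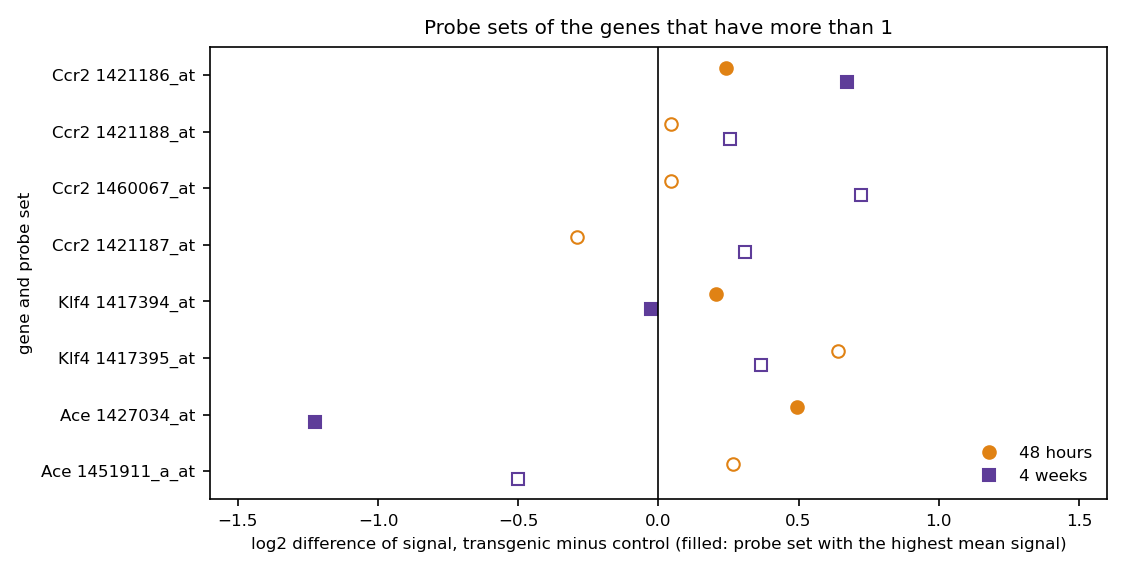
Log2 difference of signal, transgenic minus control, at 48 hours (circles) and 4 weeks (squares) for each probe set of Ccr2, Klf4 and Ace, with filled marks for the probe set of highest mean signal. All 4 Ccr2 probe sets lie above 0 at 4 weeks, both Ace probe sets lie above 0 at 48 hours and below 0 at 4 weeks, and the Klf4 probe sets lie on opposite sides of 0 at 4 weeks (-0.03 and 0.37).

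The order of the 4 group means differed between the markers. For Nr4a1 it ran, from the highest, control at 48 hours, transgenic at 4 weeks, transgenic at 48 hours, control at 4 weeks, and only the upper pair of neighbours overlapped. For S100a4, transgenic mice at 4 weeks were highest and did not overlap with the next group, control at 48 hours. For Klf4, control mice at 48 hours were lowest and did not overlap with the next group, transgenic at 48 hours. For Treml4 the only neighbours that did not overlap were control and transgenic mice at 48 hours. For Ccr2, Plac8, Ifitm6 and Ace all neighbours in the order overlapped.

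Other genes of classical monocytes were examined beside the markers. Of 15 such genes, 12 were tested here, and none passed in either direction at either time. At 48 hours 6 of the 12 were higher in transgenic pools and at 4 weeks 4 were, with median differences of -0.07 and -0.34. S100a8, which with S100a9 forms the calprotectin of neutrophils and classical monocytes, was 2779 and 3336 in transgenic pools against 6377 and 7909 in control pools at 48 hours. At 4 weeks S100a8 was 2125 and 1431 in transgenic pools, against 3172 and 11267 in control pools.

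The log2 difference of S100a8 was -1.21 at 48 hours and -1.76 at 4 weeks, and that of S100a9 -1.28 and -1.54, with adjusted p between 0.893 and 0.976 in limma. Both 4-week values rested in part on control pool 2, without which they kept their sign but were -0.85 for S100a8 and -0.69 for S100a9. Chil3, a chitinase-like protein of myeloid cells, differed by -0.52 and -1.43. Fn1, fibronectin, which monocytes and macrophages also make, had the opposite sign at 4 weeks, with 22498 and 23285 in transgenic pools against 11656 and 12619 in control pools and a log2 difference of 0.91 (adjusted p = 0.882 in limma).

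Other genes of non-classical monocytes were listed likewise, 16 in all, of which 14 were tested and none passed. At 48 hours 3 of the 14 were higher in transgenic pools and at 4 weeks 8 were, with median differences of -0.32 and 0.15. Cx3cr1, the fractalkine receptor, which is high on non-classical monocytes and on many tissue macrophages, was 1692 and 1732 in transgenic pools against 3088 and 2400.1 in control pools at 48 hours. At 4 weeks Cx3cr1 was 1409 and 2408 in transgenic pools, against 489 and 591 in control pools. Its log2 difference was -0.66 at 48 hours and 1.72 at 4 weeks, the same signs as Nr4a1, with adjusted p = 0.976 and 0.399 in limma. Itgax, the integrin Cd11c, had -0.43 and 1.19, also without overlap at either time, and its 4-week value was between 0.54 and 1.83 when 1 pool was left out. Cd300ld had -0.28 and 0.39, likewise without overlap at either time. Adgre4 (-0.42 and 0.49), Dusp16 (-0.50 and 0.43), Itgal (-0.23 and 0.05) and Cebpb (-0.05 and 0.39) had the same signs, with overlapping groups at 4 weeks. The remaining tested genes of the list did not have these signs at both times. Spn was lower in transgenic pools at both times, with -0.46 and -0.55 and no overlap at either. Eno3 (-0.35 and -0.55) and Pou2f2 (-0.61 and -0.30) were also lower at both times.

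**Figure D4:**
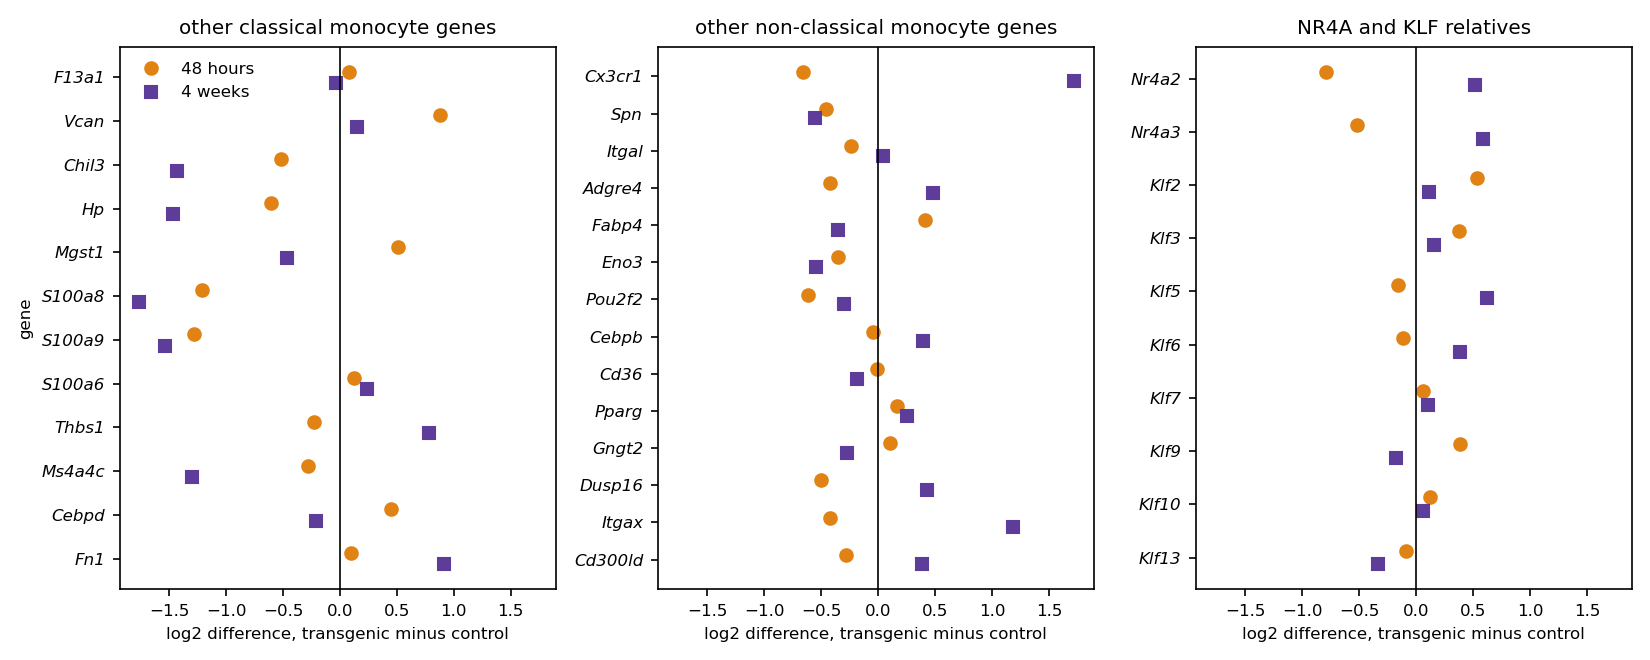
Log2 difference of signal, transgenic minus control, at 48 hours (circles) and 4 weeks (squares) for the tested genes of 3 lists: other classical monocyte genes, other non-classical monocyte genes, and NR4A and KLF relatives. Cx3cr1 (-0.66 and 1.72), Itgax, Nr4a2 and Nr4a3 lie below 0 at 48 hours and above 0 at 4 weeks. Thbs1, Cd300ld, Adgre4, Dusp16, Itgal, Cebpb, Klf5 and Klf6 do so as well. S100a8, S100a9, Spn, Eno3 and Pou2f2 are among the genes that lie below 0 at both.

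The chemokines that Ccr2 binds were measured in the same cells. Of 7 ligands and related receptors, 5 were tested and none passed, with 3 higher in transgenic pools at 48 hours and 4 at 4 weeks and median differences of 0.04 and 0.38. Ccl7 was 6404 and 7350.4 in transgenic pools against 5006 and 3198 in control pools at 4 weeks, a log2 difference of 0.77 (adjusted p = 0.965 in limma), or 0.45 without control pool 2. Ccl2 was 9423 and 14750 in transgenic pools against 9334 and 8619 in control pools at 4 weeks, a log2 difference of 0.39, or between 0.071 and 0.72 when 1 pool was left out. Neither Ccl2 nor Ccl7 was separated at 48 hours, where the differences were -0.08 and 0.12.

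Summed signals of several other cell types also differed between the groups, with no test, and no gene on the arrays was listed at 0. Epithelial and endothelial cells, read here too, are not among the carriers of Cd11b named above. The summed signal of 11 of 13 neutrophil genes was 9919 to 10601 in transgenic pools against 15614 to 17649 in control pools at 48 hours. At 4 weeks it was 8517 to 8771 in transgenic pools, against 11573 to 24183 in control pools. The summed neutrophil signal was thus lower in the transgenic pools at both times. At 48 hours it lay beside the lower Treml4 signal, and its part in that was not tested. At 4 weeks the Treml4 groups overlapped. The highest neutrophil sum at 4 weeks, 24183, came from control pool 2, the array with the high actin ratio. S100a8 and S100a9 belong to the neutrophil list and are counted in this sum. Their lower signals and the lower sum are therefore not separate observations. At 48 hours S100a8 alone was 2779 and 3336 in transgenic pools against 6377 and 7909 in control pools. Of the 10 neutrophil genes tested, 2 were higher and 8 lower in transgenic pools at 48 hours, and all 10 were lower at 4 weeks.

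The summed signal of 7 of 8 dendritic cell genes was 2207 to 3147 in transgenic pools against 2928 to 3768 in control pools at 48 hours, with overlap. At 4 weeks it was 3870 to 5245 in transgenic pools, against 2547 to 3276 in control pools, beside the higher Cx3cr1, Itgax and Ccr2 signals, and its part in them was not tested. The 4-week sum was carried mainly by Cd209a, the gene of highest signal in the list, which is named here after its values were seen. Without Cd209a the sums were 1675 to 2329 in transgenic pools and 1261 to 1980 in control pools, with overlap, and 3 of the 7 tested genes were higher in transgenic pools and 4 lower. For 10 luminal epithelial genes the sums were 7352 to 8609 in transgenic pools against 2812 to 2977 in control pools at 48 hours, and 4165 to 7757 in transgenic pools against 6564 to 10018 in control pools at 4 weeks. The luminal signal in the sorted cells thus differed between the groups, without overlap at 48 hours, and its part in the marker signals was not tested. For 9 of 11 T and NK cell genes they were 2331 to 3466 in transgenic pools against 3155 to 5989 in control pools at 48 hours, and 1409 to 1894 in transgenic pools against 1123 to 1173 in control pools at 4 weeks. The 4-week separation came from Cd8a, likewise named after its values were seen: without it the sums were 418 to 1099 in transgenic pools and 601 to 876 in control pools, with overlap, and 4 of 7 tested genes were higher and 3 lower in transgenic pools. The 7 endothelial genes, 5 myoepithelial genes and 4 of 5 B cell genes had overlapping sums at both times. The sums of 7 eosinophil and mast cell genes were 2238 to 2457 in transgenic pools against 2480 to 3088 in control pools at 48 hours, and 2049 to 2398 in transgenic pools against 1677 to 1726 in control pools at 4 weeks. The genotype difference of these sums had the signs of that of Nr4a1 at both times. In the mean of the pools, so did the dendritic cell sums and the T and NK cell sums, which overlapped at 48 hours. In transgenic pools the eosinophil and mast cell sums overlapped between the times. Nr4a1 did not overlap there, with a log2 difference of 0.32 and an unadjusted p of 0.115 in limma. The part of any of these cell types in the Nr4a1 signal was not tested.

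The genes most like each marker were ranked by Pearson's r of log2 values over the 8 arrays. They were Gabpa for Ccr2 (r = 0.97), Gm4951 for Plac8 (r = 0.99), Zup1 for Ifitm6 (r = 0.99) and Rasgrp1 for S100a4 (r = 0.97). For the others they were Mkln1 for Klf4 (r = 0.97), Gria4 for Treml4 (r = 0.96), Glis2 for Ace (r = 0.96) and Txn2 for Nr4a1 (r = 0.97). These are the highest of 13041 values each over the same 8 arrays, and between 12 and 72 genes reached r over 0.9 with a given marker, the fewest with Nr4a1 and the most with Plac8 and Ifitm6. No marker was the gene most like another marker. Between markers, r was highest for Plac8 with Ifitm6 (r = 0.91) and lowest for Ccr2 with Treml4 (r = -0.85).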

How the data were processed

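The samples were mammary cells sorted with a Cd11b antibody and measured on Affymetrix Mouse 430 2.0 arrays. The deposited table holds 1 intensity for each probe set, a linear signal that the authors computed with MAS5 according to the submitters' processing notes. After trimming 2% of the probe sets at either end, each array averages 500. For arrays the number of samples limits the precision, and no detection calls were used. Of 45101 probe sets, 64 were controls, 34945 carried 1 symbol, 932 several and 9160 none; probe sets were named through GEO's platform annotation. Of each gene, the probe set of highest mean was used, and genes above the array median on at least 2 arrays were tested, 13041 of 18193. Values were log2(signal + 30.8), the offset being the 25th percentile of the table. All 4 groups were fitted together in limma 3.58.1 (R 4.3.3; lmFit and eBayes with an intensity trend, tested on simulated data), for 6 contrasts, with Benjamini-Hochberg adjustment over all 13041 genes at 0.05.

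The named genes are the 8 markers, up to 4 genes of each related list with the smallest p in a contrast, and the genes most like a marker. The markers and lists were chosen with earlier results of these data known. Alternatives changed the offset, filter, scaling, fit and arrays; leaving out pools for other named genes, and the top gene of a cell type sum, was added after seeing the data. The labels do not say whether pools of the same number shared animals, litters or days. Nothing beyond pooling says how separate the samples were. Promoters are from RefSeq (GRCm38.p6).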

Additional observations from a re-analysis of the deposited data

Results flagged for a closer look

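The genotype effect on Nr4a1 at 4 weeks minus that at 48 hours was 0.82 on the log2 scale. It stands out because both transgenic pools were below both control pools at 48 hours, with 8722 and 9656 in transgenic pools against 12840.3 and 10901 in control pools, and above both at 4 weeks, with 12336 and 10717 in transgenic pools against 8298 and 8412 in control pools. The difference between the effects did not pass in limma (adjusted p = 0.988). It lay between 0.71 and 0.94 over the alternatives tried, with adjusted p between 0.568 and 1. Of all 13041 genes, 2.29% crossed in this direction and 5.5% crossed in either.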

How the results depend on the processing

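No marker passed under any of 11 alternatives or 8 fits that each left out 1 pool, and 16 of 27 single marker results kept their direction in every fit. The number of genes called was 0 for transgenic against control at 48 hours and at 4 weeks and 1 for 4 weeks against 48 hours in control mice. With the replicate block, in which pools of one number are paired, it was 2 at 4 weeks and 4 between the times in control mice, and no marker was called; correlations between pools of the same number ran from -0.09 to 0.13, so the numbers were not taken to pair the samples. With the 4 arrays of a comparison fitted alone it was 1 at 48 hours, 1 at 4 weeks and 0 between the times in control mice; that fit gives no value for the difference between the effects or for both times together. Between the times in control mice it was 7 when the actin ratio was a covariate and 0 with the mean filter, with no intensity trend and with array weights. Leaving out 1 pool gave 0 to 1 genes called at 48 hours, at 4 weeks, for the difference between the effects, for both times together and between the times in transgenic mice, and 0 to 7 between the times in control mice. Under that covariate the 48-hour difference was -0.0037 for Ccr2 and -0.26 for Plac8 and the 4-week difference 0.31 for Treml4, and with quantile scaling the 4-week difference of Klf4 was 0.038. Leaving out 1 pool gave ranges at 48 hours of -0.23 to 0.71 for Ccr2, -0.39 to 0.57 for Plac8, -0.25 to 0.24 for Ifitm6, -0.38 to 0.22 for S100a4 and -0.13 to 1.13 for Ace. At 4 weeks the ranges were -0.95 to 0.020 for Ifitm6, -0.12 to 0.066 for Klf4 and -2.12 to 0.21 for Treml4, and for the difference between the effects -0.037 to 0.90 for Ccr2, -0.94 to 0.028 for Ifitm6 and -1.05 to 1.29 for Treml4. Leaving out 1 pool was also tried, after seeing the data, on the other named genes, with 48-hour ranges of -0.29 to 0.49 for Fn1, -0.39 to 0.22 for Ccl2, -0.21 to 0.46 for Ccl7 and -0.049 to 0.37 for Zfp36, and on the median of the markers, which ran from -0.24 to 0.24 at 48 hours and -0.33 to 0.080 at 4 weeks. The cause of these changes was not tested. With 2 pools a group, single arrays decide many of these values.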

Other observations

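Immediate early genes are switched on within minutes by many stimuli and by tissue digestion. Of 14 tested, none passed, with 7 higher in transgenic pools at 48 hours and 9 at 4 weeks and median differences of -0.01 and 0.14. Fosb, an AP-1 subunit, was 4156 and 4953 in transgenic pools against 2674 and 3424 in control pools at 4 weeks, a log2 difference of 0.58 (adjusted p = 0.965 in limma). Zfp36, which speeds the decay of cytokine mRNAs, differed by 0.50 at 4 weeks. At 48 hours Fosb and Zfp36 differed by 0.25 and 0.16. Egr2, Egr3, Ier3, Btg2 and Maff, 5 of the 14 and named here after their values were seen, had the signs of Nr4a1 at both times, with 48-hour differences between -0.33 and -0.08 and 4-week differences between 0.10 and 0.83. The rest of the 14 did not. Jun (0.34 and -0.44), Egr1 (0.06 and -0.22) and Atf3 (0.18 and -0.03) had the opposite signs. Fos and Dusp1 were lower in transgenic pools at both times, and Junb, Ier2, Fosb and Zfp36 were higher at both.

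Of 8 relatives of Ifitm6 and S100a4, 7 were tested and none passed, with medians of 0.12 at 48 hours and -0.20 at 4 weeks and 5 and 3 genes higher in transgenic pools. Ifitm3, an antiviral protein of the same family as Ifitm6, was 24763 and 18990 in transgenic pools against 43833 and 17912 in control pools at 4 weeks, with the high value on the array where Ifitm6 and Plac8 were also highest. Of 10 monocyte lineage factors and growth factor receptors, 8 were tested and none passed, with medians of -0.09 and 0.01 and 2 and 4 genes higher in transgenic pools. Csf2rb, the common beta chain of the receptors for GM-CSF, IL-3 and IL-5, was 5880 and 8704 in transgenic pools against 3617 and 5332 in control pools at 4 weeks, and its differences of -0.31 at 48 hours and 0.70 at 4 weeks had the signs of Nr4a1. Csf2ra, the GM-CSF receptor's own alpha chain, differed by -0.23 and -0.63. The single gene that passed in any of the 6 contrasts was F5, coagulation factor V, between the times in control mice, where the log2 difference was -2.36 (adjusted p = 0.04 in limma).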
